A study of Homo sapiens with 2 samples.

Results

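RUNX1+ endothelium was examined in 2 blood-generating heart-forming organoids (BG-HFOs) on day 14 of differentiation. The organoids, 32.7 and 33.10, were made from hES3 NKX2.5-eGFP, a human embryonic stem cell line with a cardiac reporter, by embedding cell aggregates in Matrigel, modulating WNT signalling in 2 phases and adding growth factors that drive blood and endothelial fates. Each organoid was dissociated alone and gave 1 droplet-based 3' single-cell library. Both belong to the same condition and to a single cell line, so classes of cells were compared and the organoid was the replicate (n = 2). The p-values measure only the spread between these 2 organoids, pooled over 8 classes of cells.

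RUNX1+ endothelial cells were chosen by the unique molecular identifiers (UMIs, 1 per captured transcript molecule) that a barcode had of 8 genes. Such a barcode had at least 2 UMIs of CDH5 (VE-cadherin, the junction protein of endothelium), at least 1 of PECAM1 (CD31, an adhesion molecule of endothelium) and at least 1 of RUNX1. It had at most 1 UMI of PTPRC (CD45, carried by white blood cells), at most 2 of MYH6 (a cardiac myosin) and at most 1 of PDGFRA (a growth factor receptor of mesenchyme). PF4, a platelet chemokine of megakaryocytes, stayed below 500 CPM and HBZ, an embryonic globin, below 1000 CPM (UMIs per 1000000 UMIs of the barcode). Barcodes also needed 500 to 9000 genes and under 15% mitochondrial UMIs. These limits kept 330 of 36814 barcodes (0.896%), 161 of 16866 in organoid 32.7 and 169 of 19948 in organoid 33.10. Since measured values chose these cells, the levels of the 8 genes are a description with no test.

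Haemogenic endothelium is the embryonic endothelium that releases blood cells, losing its endothelial programme in the course of the endothelial-to-haematopoietic transition. RUNX1 is the transcription factor that this transition requires. GATA2 acts in endothelium before and during it, and GFI1, a repressor switched on by RUNX1, silences endothelial genes. RUNX1 spans chr21:34787801-36004667 on the minus strand of GRCh38, GATA2 chr3:128479427-128493201 and GFI1 chr1:92473043-92486925, both also on the minus strand.

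The libraries held 191152562 UMIs in organoid 32.7 (median 7842 per barcode) and 233818881 in organoid 33.10 (median 8284.5). RUNX1+ endothelial cells were deeper, with medians of 18119 and 17588 UMIs. Endothelium that met every other limit but had no RUNX1 UMI (RUNX1-0 endothelium, 1773 and 1580 cells) had medians of 14010 and 11840. In Scrublet, which scores how much a barcode resembles a mixture of cells, 16.8% and 33.1% of the RUNX1+ cells were among the top-scoring barcodes, against 5.08% and 4.18% of RUNX1-0 endothelium. The libraries shared 100 barcode sequences, and 2 RUNX1+ cells carried one of them.

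Of the markers CDH5, RUNX1, GATA2 and GFI1, the last was almost absent. GFI1 was found in 0 of 161 cells of organoid 32.7, which allows up to 1.86% of cells with a UMI (3 counts) and sets no limit on cells that express the gene, and in 3 of 169 cells of organoid 33.10 (1.78%, exact 95% interval 0.368 to 5.10). It was found in 0.282% and 0.127% of RUNX1-0 endothelium and in 10.8% and 3.30% of the RUNX1+ PTPRC+ blood cells, which had at least 2 UMIs of PTPRC and none of CDH5. GATA2 was found in 37.9% and 29.0% of RUNX1+ endothelium, in 23.7% and 21.3% of RUNX1-0 endothelium and in 4.21% and 5.19% of cardiomyocytes. With every cell thinned to 3000 UMIs, those shares became 8.07% and 10.1% in RUNX1+ and 6.45% and 6.39% in RUNX1-0 endothelium. HLF, a transcription factor of blood stem cells, had 0 UMIs in RUNX1+ endothelium of both organoids. The 11 HOXA genes measured summed there to 1.55 and 0.870 CPM, too low for any to be tested. GFI1, HLF and the HOXA genes were thus at or near 0 while GATA2 was detected, and the cells are called RUNX1+ endothelium after the rule that chose them.

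The share of endothelium with a RUNX1 UMI lay below that of mesenchyme and near that of cardiomyocytes, which are not expected to use RUNX1. RUNX1 was found in 161 of 1934 gated endothelial cells of organoid 32.7 (8.32%, exact 95% interval 7.13 to 9.65, median depth 14400 UMIs) and in 169 of 1749 of organoid 33.10 (9.66%, 8.32 to 11.1, median depth 12400). All 3 classes were held to the same PF4 and HBZ limits, with at most 1 PTPRC UMI in endothelium and none in the other two, and 12.0% and 13.5% of cardiomyocytes were among the top Scrublet scores. Cardiomyocytes gave 5.41% and 9.69% at median depths of 7600 and 9630 UMIs, and PDGFRA+ mesenchyme gave 18.6% and 17.3%. Erythroid cells gave 53.5% and 53.0%, megakaryocytes 55.4% and 65.8%. Thinned to 3000 UMIs, with 20 and 30 shallower cells left out, the endothelial share was 2.14% and 2.97%. That of cardiomyocytes was 1.85% and 4.19%, with 131 and 56 cells left out, and that of mesenchyme 4.60% and 5.31%. In organoid 33.10 the endothelial share lay at or below that of cardiomyocytes in both ways of counting. In organoid 32.7 it lay above that of cardiomyocytes, and after thinning the intervals overlapped (1.54 to 2.89 against 0.991 to 3.15). Neither tissue was free of cells rich in RUNX1, since cardiomyocytes reached 8 and 31 UMIs and mesenchyme 28 and 42. Free RNA was not removed from these counts, and its part in the single UMIs was not tested. The intervals cover counting error only.

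**Figure D1:**
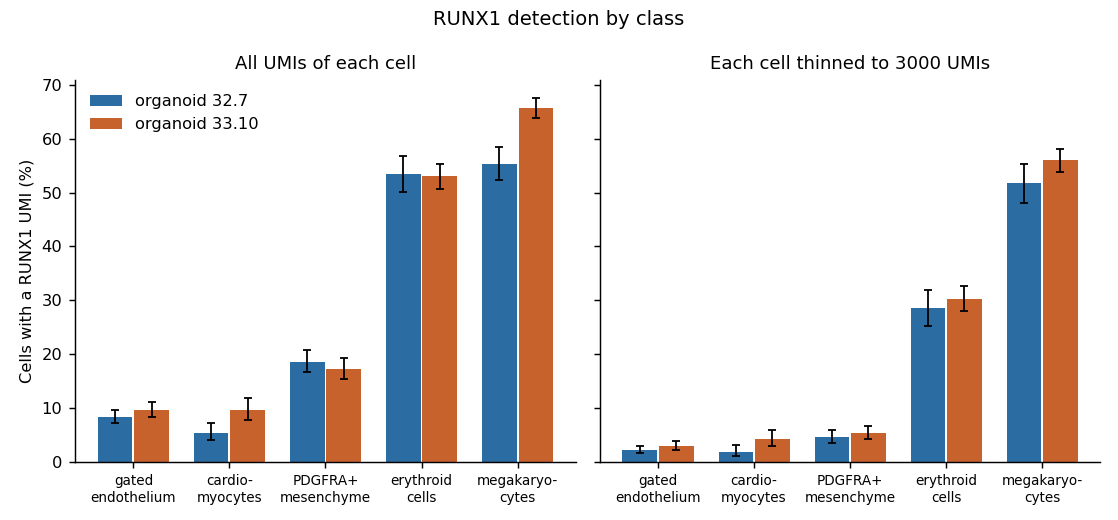
Percentage of cells with at least 1 RUNX1 UMI in 5 classes of cells, for organoids 32.7 (blue) and 33.10 (orange), with exact 95% binomial intervals, from all UMIs (left) and from cells thinned to 3000 UMIs (right). Gated endothelium stands at 8.32% and 9.66% on the left and at 2.14% and 2.97% on the right, far under erythroid cells and megakaryocytes.

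RUNX1+ endothelium was uneven in RUNX1 itself. Exactly 1 UMI was seen in 239 of the 330 cells (72.4%; 129 in organoid 32.7 and 110 in organoid 33.10), 2 UMIs in 38 (14 and 24) and 3 or more in 53 (18 and 35). The highest counts were 69 and 60 UMIs. A subset of 34 cells with 5 or more UMIs, taken after the values were seen, held 60.3% of the 953 RUNX1 UMIs of all 330 cells. The summed level of RUNX1 was 113 CPM in organoid 32.7 and 170 CPM in organoid 33.10. It was 51.7 and 54.3 CPM in cells with 1 UMI, and 431 and 439 CPM in those with 3 or more.

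Cells with 1 RUNX1 UMI had endothelial levels close to those of RUNX1-0 endothelium, while cells with 3 or more had lower ones. KDR, the main VEGF receptor of endothelium, was at 955 and 1034 CPM with 1 UMI and at 442 and 529 CPM with 3 or more. ERG, an ETS factor that maintains endothelial identity, was at 174 and 196 CPM with 1 UMI and at 92.9 and 97.2 CPM with 3 or more. For both genes the organoids of the 2 groups did not overlap. CDH5, a gene of the rule, was at 309 and 303 CPM with 1 UMI and at 198 and 142 CPM with 3 or more. It is read no further, since a limit of 2 UMIs admits lower CPM in deeper cells. Summed over 22 pan-endothelial genes, the level was 9499 and 9094 CPM with 1 UMI, 8702 and 7833 CPM with 2 and 5181 and 5366 CPM with 3 or more. RUNX1-0 endothelium had 9735 and 9331 CPM.

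Blood transcripts went the other way. SPI1 (PU.1, the myeloid master regulator) was at 6.82 and 1.97 CPM with 1 RUNX1 UMI and at 78.4 and 38.9 CPM with 3 or more. IKZF1 (Ikaros, a lymphoid and progenitor factor) went from 3.21 and 1.48 CPM to 51.6 and 42.0 CPM between the same groups, and SPN (CD43, an early surface marker of blood progenitors) from 1.20 and 1.48 CPM to 35.1 and 62.4 CPM. HBG2, a fetal globin, was at 58.2 and 370 CPM with 1 UMI and at 1286 and 2022 CPM with 3 or more. All 4 genes were higher in the cells with 3 or more UMIs in both organoids. The 3 GFI1-positive cells, all of organoid 33.10, had 3 or more RUNX1 UMIs as well.

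**Figure D2:**
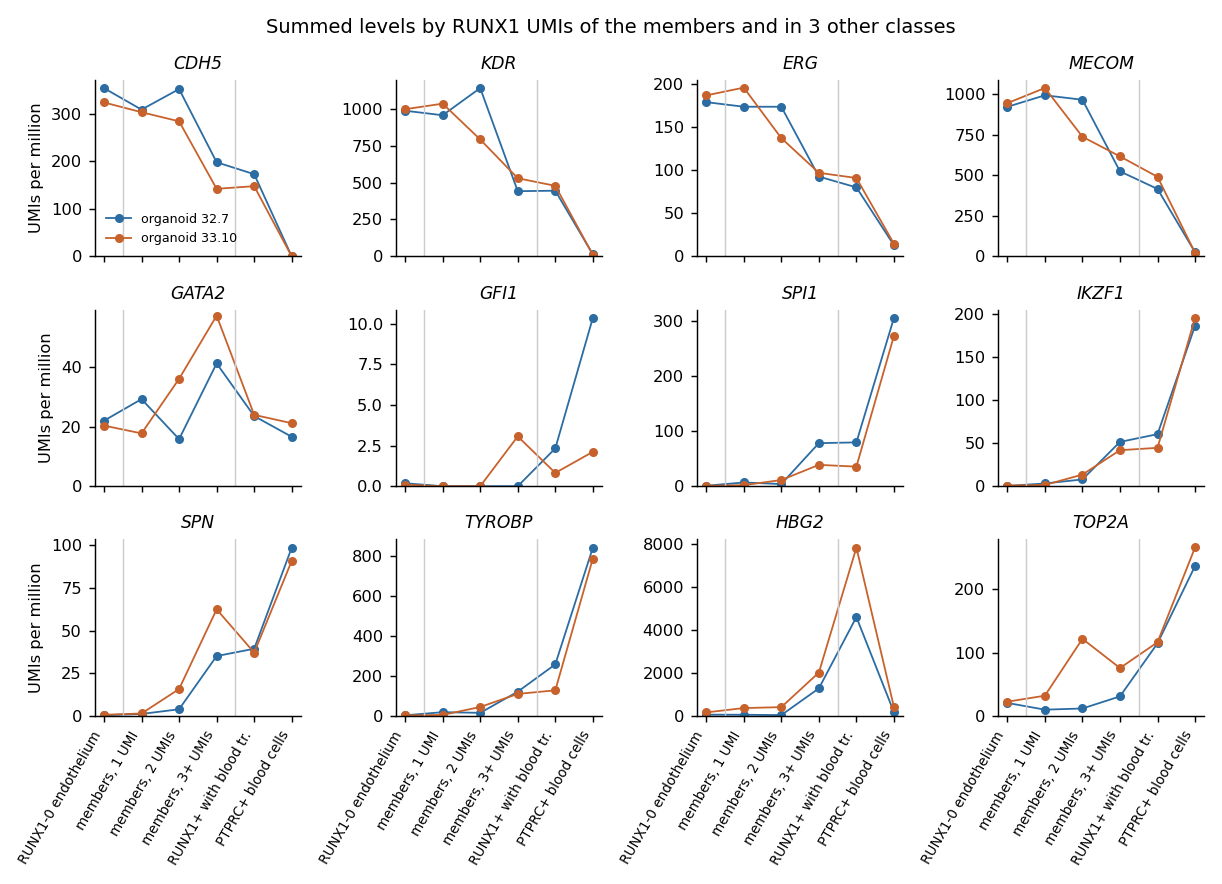
Summed levels in CPM of 12 genes in RUNX1-0 endothelium, in RUNX1+ endothelium split by RUNX1 UMIs per cell (1, 2, 3 or more) and in RUNX1+ endothelium with blood transcripts and RUNX1+ PTPRC+ blood cells, with 1 line per organoid. KDR, ERG and MECOM are lowest among the RUNX1+ endothelial cells at 3 or more UMIs, where SPI1, IKZF1, SPN, TYROBP and HBG2 are highest in both organoids.

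Most cells with 3 or more RUNX1 UMIs also carried the genes of another lineage. A limit was set for each of 6 lists (erythroid, megakaryocyte, myeloid, cardiomyocyte, mesenchymal and foregut endoderm genes) at the 99th percentile of RUNX1-0 endothelium in the same organoid. Cells past at least 1 limit made up 6.20% and 12.7% of those with 1 UMI, 7.14% and 29.2% of those with 2, and 66.7% and 71.4% of those with 3 or more, against 4.91% and 5.70% of RUNX1-0 endothelium. Of the 53 cells with 3 or more UMIs, 37 were past a limit, 22 were past at least 2, and 35 were among the top Scrublet scores. All 53 had KDR, 38 had ERG, 30 had SPI1, 24 had SPN, 24 had GATA2 and 12 had MYB. Their median depths were 27486 and 27564 UMIs, against 17654 and 16103 with 1 UMI. The part that depth and mixed barcodes have in these levels was not tested. A split of the cells by GFI1 could not be fitted, as organoid 32.7 had 0 and organoid 33.10 had 3 GFI1-positive cells. Of these 3 cells, those with 17 and 8 RUNX1 UMIs were past the myeloid limit. The cell with 3 was past the erythroid limit and among the top Scrublet scores.

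**Figure D3:**
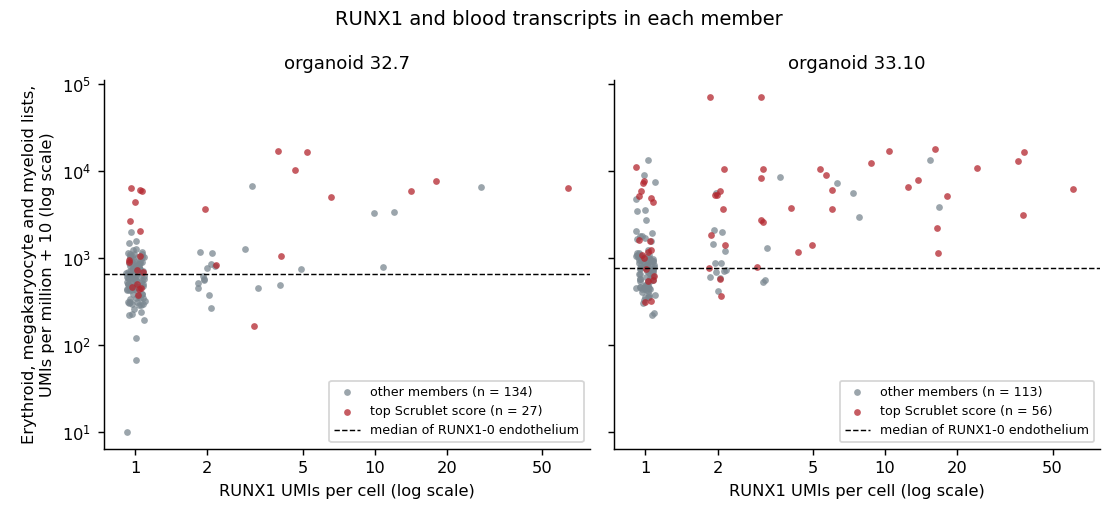
RUNX1 UMIs per cell (x axis, log scale, points shifted slightly sideways) against the summed erythroid, megakaryocyte and myeloid genes in CPM plus 10 (y axis, log scale) for each RUNX1+ endothelial cell of both organoids. Red points are top-scoring barcodes in Scrublet and the dashed line is the median of RUNX1-0 endothelium. Medians before adding 10 were 606 and 795 CPM with 1 RUNX1 UMI and 4197 and 5952 with 3 or more.

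The limits of the rule fell within continuous distributions. For CDH5, 67 cells were just inside with 2 UMIs and 77 just outside with 1, and for PECAM1 30 were just inside with 1 UMI and 30 just outside with 0. For PTPRC, 15 had 1 UMI and 12 had 2. For MYH6, 8 had 2 UMIs and 3 had 3, and for PDGFRA 33 had 1 UMI and 20 had 2. PF4 was between 400 and 500 CPM in 8 cells and between 500 and 600 in 5 cells that met the other limits, and HBZ was between 800 and 1000 in 3 cells and between 1000 and 1200 in 5. For RUNX1 most cells lay at the border, with 239 cells at 1 UMI and 3353 at 0.

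RUNX1 binds DNA at TGTGGT, whose reverse complement is ACCACA, so promoters were searched for these letters on both strands. In the 250 bases before the start of each RefSeq promoter of GRCh38.p14, 3855 of 35116 promoters (11%) held a match, as did 1684 of 18757 promoters of the 13018 tested genes matched by symbol (8.98%) and 13 of 101 promoters of the 69 matched genes called higher in RUNX1+ than in RUNX1-0 endothelium (12.9%). A match is only a description of the letters. The 3 promoters below, printed 5' to 3' on the gene's strand with the match in capitals, belong to GFI1 (chr1:92486100-92486349, minus strand, 1 of 3 entries), IKZF1 (chr7:50308450-50308699, plus strand, 1 of 3 entries) and HDC (chr15:50265727-50265976, minus strand). They are shown because GFI1 is the marker that was nearly absent and IKZF1 and HDC were called higher. All 3 hold a match, whereas only 13 of 101 promoters of the genes called higher did, so they do not represent those genes. The matches begin 47, 144 and 135 bases before the start.
GFI1: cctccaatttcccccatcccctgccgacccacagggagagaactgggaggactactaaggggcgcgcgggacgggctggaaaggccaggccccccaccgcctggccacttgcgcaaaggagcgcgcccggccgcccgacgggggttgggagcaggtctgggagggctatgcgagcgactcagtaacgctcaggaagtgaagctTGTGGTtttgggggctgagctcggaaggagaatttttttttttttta
IKZF1: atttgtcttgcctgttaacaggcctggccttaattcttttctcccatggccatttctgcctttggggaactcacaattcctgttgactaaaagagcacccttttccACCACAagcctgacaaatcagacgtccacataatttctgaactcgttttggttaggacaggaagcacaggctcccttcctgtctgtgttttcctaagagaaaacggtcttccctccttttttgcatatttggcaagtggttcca
HDC: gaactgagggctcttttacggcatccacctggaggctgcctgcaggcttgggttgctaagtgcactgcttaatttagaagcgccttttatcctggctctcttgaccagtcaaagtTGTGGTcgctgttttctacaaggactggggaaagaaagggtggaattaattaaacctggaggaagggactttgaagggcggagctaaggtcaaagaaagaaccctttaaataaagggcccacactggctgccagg

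RUNX1+ and RUNX1-0 endothelium differed in few genes, and all but 1 of these were higher in RUNX1+ endothelium. Of 20181 genes tested with edgeR's quasi-likelihood test and Benjamini-Hochberg adjustment, 112 had an adjusted p under 0.05 (0.555%). Of these, 111 were higher in RUNX1+ endothelium (0.55%) and 1 was lower (0.00496%). No gene of the 22 pan-endothelial, 18 arterial, 11 venous, 12 tip and angiogenic or 9 endocardial genes was called. With the organoid as a block, which compares the classes within each library, RASIP1, a pan-endothelial gene of vessel lumen formation, and APLNR, the apelin receptor of veins, were lower (edgeR adjusted p = 0.0176 and 0.00668, log2 fold changes -0.41 and -0.58). Several other endothelial genes, such as KDR, ENG, FLT1, CXCR4 and DLL4, were each called lower in 1 of 19 alternatives. Lower calls were most numerous with at least 2 RUNX1 UMIs required (982 of all genes), which leaves out the 239 cells with 1 UMI. Any other alternative had at most 65. Among myeloid genes 5 of 20 were called higher, as were 4 of 24 haemogenic and blood transcription factors. These counts were 9 and 7 with the block, under which 236 of all genes tested (1.17%) were higher and 20 (0.0991%) lower. The block added LYZ, CORO1A, RAC2 and CSF3R to the first and GFI1B, GATA1 and CEBPA to the second.

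TYROBP, a signalling adaptor of myeloid cells, was at 34.4 CPM in organoid 32.7 and 40.3 CPM in organoid 33.10, against 3.37 and 2.94 CPM in RUNX1-0 endothelium. Both organoids were high in RUNX1+ endothelium and the classes did not overlap (log2 fold change 3.46, SE 0.30, edgeR adjusted p = 0.000146), and the call held in 16 of 19 alternatives. The transcription factor SPI1 was at 17.3 and 13.6 CPM against 0.879 and 0.805 CPM (log2 fold change 4.08, SE 0.46, edgeR adjusted p = 0.00104). IKZF1 was at 10.8 and 14.5 CPM against 0.293 and 0.711 CPM (log2 fold change 4.60, SE 0.38, edgeR adjusted p = 0.000131). MYB, a factor of definitive blood progenitors, was at 4.64 and 8.41 CPM against 0.403 and 0.758 CPM, and NFE2, which drives platelet formation, at 9.29 and 20.3 CPM against 0.842 and 1.85 CPM. These 4 factors were called higher with edgeR adjusted p values of at most 0.0107. Their levels stayed far under those of the endothelial factor ERG (162 and 161 CPM against 179 and 187 CPM, not called). Cells with 3 or more RUNX1 UMIs held 67.9% and 80.9% of the SPI1 UMIs and 71.4% and 82% of those of IKZF1. The same cells held 53.3% and 82.8% for MYB and 66.7% and 72.9% for NFE2. MYB was found in 9 cells of each organoid.

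GATA2 and GFI1 did not pass the test. GATA2 was at 30.02 and 31.3 CPM against 22.01 and 20.4 CPM (log2 fold change 0.44, SE 0.17, edgeR adjusted p = 0.528), higher in both organoids. GFI1 had 0 and 3 UMIs against 5 and 2 UMIs, too few for a fold change. Among 22 surface and stem-cell-linked genes tested, SPN and ANGPT1 were called higher, and with the block ITGA2B and ALDH1A1 as well, while THY1 was lower. SPN was at 6.50 and 20.6 CPM against 0.476 and 0.711 CPM (log2 fold change 4.43, SE 0.52, edgeR adjusted p = 0.00129). ANGPT1, a ligand of the endothelial receptor TEK that is also made by platelets, was at 15.5 and 28.4 CPM against 3.66 and 3.36 CPM (edgeR adjusted p = 0.0349). Cells with 3 or more RUNX1 UMIs held 81% and 85.9% of the SPN UMIs and 78% and 67.3% of those of ANGPT1. IKZF1 kept its call in 15 of 19 alternatives, SPI1 and SPN in 13, MYB in 11, NFE2 in 10 and ANGPT1 in 8. MECOM, a factor of arterial and haemogenic endothelium, was at 920 and 880 CPM against 922 and 944 CPM and was not called.

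By the naming rule (the 10 largest changes among called genes with at least 20 CPM in both organoids of the higher class), 17 genes qualified as higher and none as lower. The first was PRG2, the major basic protein of eosinophil granules, at 270 and 287 CPM against 6.30 and 4.45 CPM (log2 fold change 5.58, SE 0.92, edgeR adjusted p = 0.0144). Its level rested on few cells, as 1 cell held 763 of the 873 PRG2 UMIs of organoid 32.7 and 1 held 505 of the 990 of organoid 33.10. SRGN, the proteoglycan of storage granules, was at 153 and 43.2 CPM against 3.99 and 3.08 CPM. The 3 highest cells held 68.6% and 66.4% of its UMIs, and 1 cell held 80 of 149 in organoid 33.10. S100A4, LCP1, FCER1G and AIF1, all abundant in leukocytes, rose by log2 fold changes of 2.93, 2.64, 2.59 and 2.12. Besides TYROBP, the rule also named CKB (creatine kinase, 1.73), DLK1 (a Notch-related ligand of embryonic stroma and liver, 1.58) and PIM1 (a cytokine-induced kinase, 1.53). The 53 cells with 3 or more RUNX1 UMIs held between 52.5% and 92.6% of the UMIs of each of these 10 genes in each organoid. Their calls held in 6 (CKB) to 16 (TYROBP and S100A4) of 19 alternatives, with 8 for PRG2 and LCP1 and 11 for SRGN. Lower in RUNX1+ endothelium was only the antisense transcript ABCA9-AS1, named after its values were seen, at 1.86 and 3.48 CPM against 11.9 and 10.6 CPM.

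HDC, which makes histamine in mast cells and basophils, had 23 and 67 UMIs against 2 and 5 UMIs and was called higher (edgeR adjusted p = 0.0245), in 7 of 19 alternatives too. Its UMIs in RUNX1+ endothelium came from 4 and 10 cells, and the 3 highest cells held 91.3% and 55.2% of them. HDC was also chosen after its values were seen. HBM, a minor globin, was called higher among 18 erythroid genes and rested on organoid 33.10, with 1 UMI and 144 UMIs against 4 and 8 UMIs, and 2 cells held 76 and 60 of the 144. PDGFRB, a receptor of pericytes and mesenchyme, was called higher among 13 mesenchymal genes, at 8.67 and 10.2 CPM against 2.20 and 1.85 CPM (log2 fold change 2.11, SE 0.27, edgeR adjusted p = 0.00266). In organoid 33.10, 1 cell held 14 of its 35 UMIs. Of the megakaryocyte list 1 of 16 genes (NFE2) was called higher. The block, with 1.17% of all genes higher, raised these counts from 1 to 6 erythroid (GATA1, HBG1, HBG2, GYPB and ALAS2 added), 2 mesenchymal (COL1A1 added) and 3 megakaryocyte genes (ITGA2B and PLEK added). No gene was called among 7 foregut endoderm, 13 cardiomyocyte, 19 Notch, 18 S phase or 19 G2 and M phase genes, and only the foregut list gained calls with the block (APOA1 and TTR, both higher).

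Blood lists had high medians even where few of their genes were called. The median log2 fold change was -0.31 for pan-endothelial, -0.24 for arterial and -0.31 for venous genes, and -0.07 over all genes tested. It was 2.80 for myeloid, 2.13 for erythroid, 2.11 for megakaryocyte and 4.61 for foregut endoderm genes. Summed over the erythroid list, RUNX1+ endothelium had 706 CPM against 516 CPM in organoid 32.7 and 2653 CPM against 731 CPM in organoid 33.10, where 2 cells reached 70946 and 71583 CPM of erythroid, megakaryocyte and myeloid genes together. Summed over the myeloid list, RUNX1+ endothelium had 706 and 408 CPM against 116 and 96.1 CPM. Summed foregut endoderm genes reached 514 and 345 CPM against 25.9 and 5.97 CPM, and AFP, the most abundant of them in organoid 32.7, came from 280 and 254 UMIs in 2 cells there and from 199 UMIs in 1 cell of organoid 33.10. Counts of calls without cells of other lineages are given next.

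**Figure D4:**
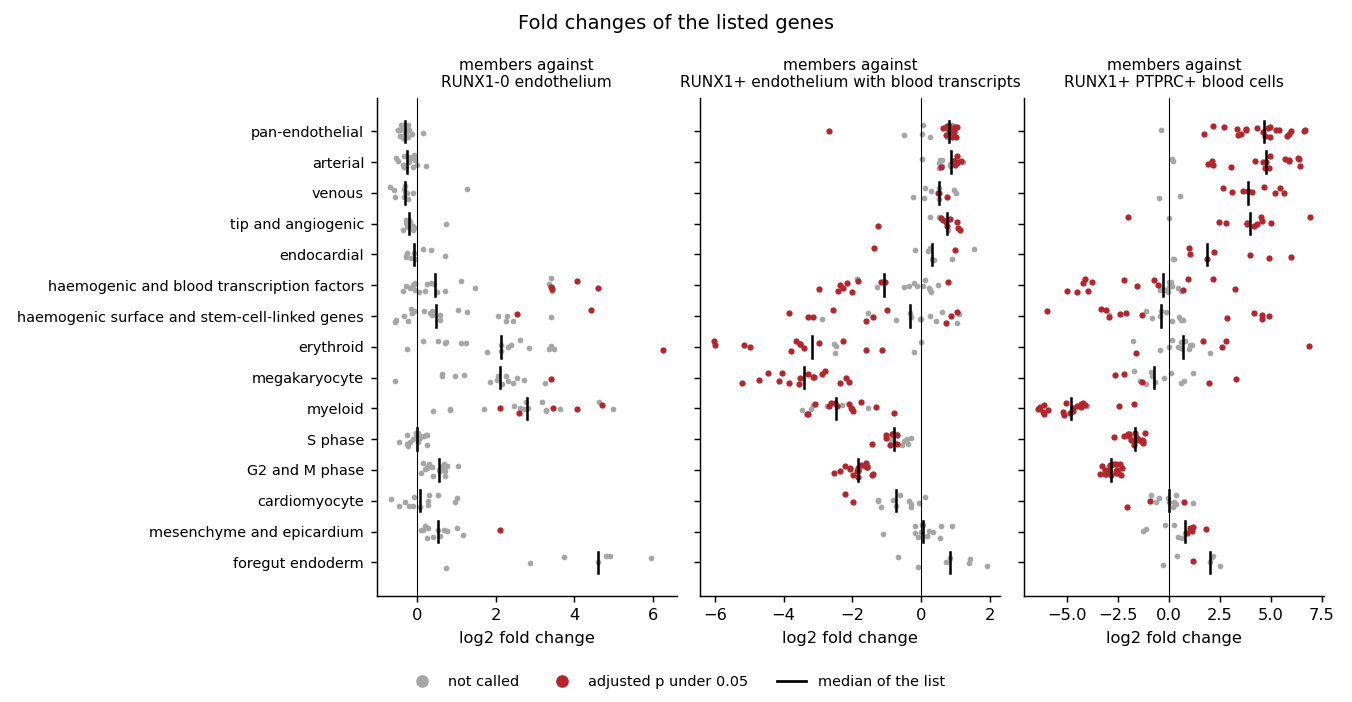
Log2 fold changes of RUNX1+ endothelium against RUNX1-0 endothelium (left), RUNX1+ endothelium with blood transcripts (middle) and RUNX1+ PTPRC+ blood cells (right) for the genes of 15 lists, 1 point per gene, red where the edgeR adjusted p is under 0.05, with a black bar at the median. On the left the endothelial lists sit near 0 with no red point, and the medians of the erythroid, megakaryocyte and myeloid lists are 2.13, 2.11 and 2.80.

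Few or no genes were called against RUNX1-0 endothelium once cells with several RUNX1 UMIs were left out. With only the 239 cells that had exactly 1 RUNX1 UMI, edgeR called 0 genes, and 1149 of 20239 genes (5.68%) had an unadjusted p under 0.05. With cells of 1 to 4 UMIs it called 2 genes. With only cells below the 6 lineage limits in both classes (140 and 123 RUNX1+ cells left), it called 0, and 1232 genes (6.11%) had an unadjusted p under 0.05. Those limits are set on blood and other lineage genes, so this alternative lowers such calls by its construction. Without the top Scrublet scores 7 genes were called. With at least 2 RUNX1 UMIs required (91 cells) the count was 1570, of which 588 were higher and 982 lower. The first 3 of these alternatives were chosen after the data had been seen.

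The count also depended on the organoids and the test. It was 256 (1.27%; 236 higher, 20 lower) with the organoid as a block and 363 with DESeq2. It rose to 149 without organoid 32.7 of RUNX1+ endothelium, and fell to 21 without its organoid 33.10 and to 29 and 35 without organoid 32.7 or 33.10 of RUNX1-0 endothelium. With RUNX1-0 cells drawn to the depth of the RUNX1+ cells it was 81.

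**Figure D5:**
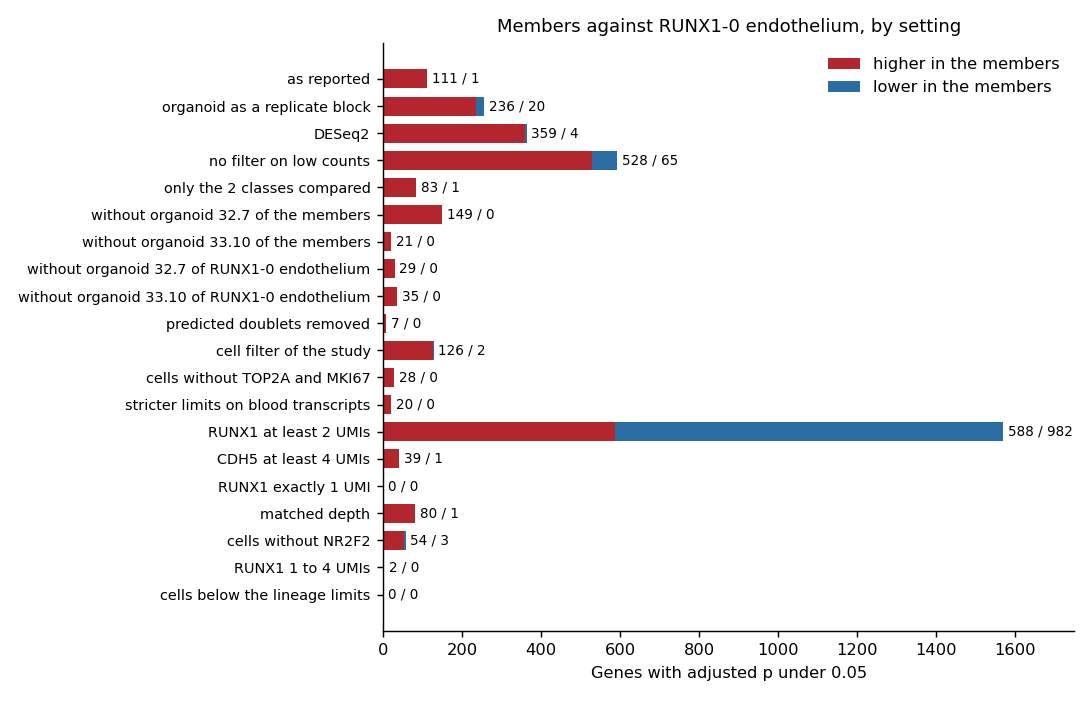
Number of genes called between RUNX1+ and RUNX1-0 endothelium (x axis) as reported and under 19 alternatives (y axis), red for higher and blue for lower in RUNX1+ endothelium, with both counts at the end of each bar. No gene is called with exactly 1 RUNX1 UMI or below the lineage limits, and 1570 genes are called with at least 2 UMIs.

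RUNX1+ endothelium was next compared with the 334 cells (147 and 187) that met the same CDH5, PECAM1 and RUNX1 limits but went past those on PTPRC, PF4 or HBZ. RUNX1+ endothelium had higher levels of endothelial genes and lower levels of genes of dividing cells. The other class was chosen by blood transcripts, and its erythroid genes summed to 10288 and 17737 CPM. A limit of 2 CDH5 UMIs also admits lower endothelial CPM in its deeper cells. The rule thus bears on endothelial and cell cycle genes too, and their p-values describe the classes that it made. Of 20181 genes, 2286 were called (11.3%), 907 higher (4.49%) and 1379 lower (6.83%) in RUNX1+ endothelium. Of 22 pan-endothelial genes 14 were higher and 1, MMRN1, was lower (median log2 fold change 0.81). These 22 genes summed to 8788.5 and 7875.5 CPM in RUNX1+ endothelium, against 4543 and 4430 CPM. The sum was only 5181 and 5366 CPM in RUNX1+ cells with 3 or more RUNX1 UMIs. When both classes needed at least 2 RUNX1 UMIs, 14 of all genes tested were higher and 134 lower. All 19 G2 and M phase genes were lower (median -1.84), as were 7 of 18 S phase genes. With the organoid as a block, 17 of 22 pan-endothelial, 4 of 11 venous and 9 of 12 tip and angiogenic genes were higher. The block put 9 of 18 S phase genes lower, with 1592 of all genes higher (7.89%) and 2097 lower. The other class had deeper cells (medians 25902 and 23299 UMIs), and 68.0% and 84.0% of them were among the top Scrublet scores. Without those scores 3011 genes were called (1500 higher, 1511 lower). The part of mixed barcodes was not tested further.

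FLT1, a VEGF receptor, was at 2098 and 2105 CPM in RUNX1+ endothelium against 895 and 993 CPM, so that the classes did not overlap (log2 fold change 1.04, SE 0.11, edgeR adjusted p = 0.000244). KDR was at 893 and 860 CPM against 445 and 478 CPM (log2 fold change 0.81, SE 0.18, edgeR adjusted p = 0.0130). Higher arterial genes numbered 7 of 18 (14 with the organoid as a block, where 7.89% of all genes were higher), among them CXCR4, the chemokine receptor of arterial and tip cells, at 231 and 196 CPM against 108 and 93.9 CPM. DLL4, the Notch ligand of arteries, was at 118 and 97.7 CPM against 57.8 and 43.7 CPM, and EFNB2, the arterial ephrin, at 542 and 474 CPM against 198 and 220 CPM. Of 11 venous genes 3 were higher, such as APLNR, the apelin receptor, at 118 and 113 CPM against 75.9 and 75.4 CPM.

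Tip and angiogenic genes were higher in 8 of 12 cases. ESM1, a tip cell proteoglycan, was at 1759 and 1581 CPM against 764 and 697 CPM (log2 fold change 1.08, SE 0.24, edgeR adjusted p = 0.0134), and ANGPT2, which destabilises vessels, at 304 and 264 CPM against 125 and 115 CPM. CD34, shared by endothelium and blood progenitors, was at 193 and 172 CPM against 84.7 and 79.1 CPM (log2 fold change 1.04, SE 0.22, edgeR adjusted p = 0.0105). MECOM and ERG were also called higher, by log2 fold changes of 0.88 and 0.80. The 10 genes of the naming rule were UNC5B-AS1, NETO1, ADAMTS9-AS1, VEGFC, CHST1, CDH8, ADGRF5, LRRC4, EDA and PTCHD1-AS, with log2 fold changes from 1.25 to 1.46. VEGFC, the growth factor of lymphatic and venous sprouting, was at 94.7 and 139 CPM against 36.8 and 44.1 CPM.

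TOP2A, the topoisomerase of dividing cells, was at 13.3 and 56.0 CPM against 115 and 116 CPM (log2 fold change -1.86, SE 0.39, edgeR adjusted p = 0.0104). MKI67, the proliferation marker Ki-67, was at 11.5 and 36.5 CPM against 84.7 and 74.4 CPM, and CDK1, the mitotic kinase, at 17.0 and 43.5 CPM against 80.0 and 70.1 CPM. RUNX1+ endothelium was low in both organoids and lowest in organoid 32.7. GATA2 did not pass the test, at 30.02 and 31.3 CPM against 23.6 and 24.0 CPM (edgeR adjusted p = 0.445).

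Blood genes were divided by the rule here, since PF4, HBZ and PTPRC separate both classes, and they are given as a description. All 16 megakaryocyte, 13 of 18 erythroid and 14 of 20 myeloid genes were lower in RUNX1+ endothelium. With the organoid as a block, 16 of 18 erythroid and 19 of 20 myeloid genes were lower, as were 11 of 24 blood transcription factors. PPBP, a platelet chemokine, was at 30.3 and 69.6 CPM against 1354 and 2042 CPM, and THBS1 (thrombospondin) at 19.2 and 31.3 CPM against 344 and 458 CPM. HBG2 was at 241 and 844 CPM against 4604 and 7834 CPM. AHSP, PF4V1, MPP7, GP1BB, GP9, F13A1, TREML1 and DGKG complete the 10 named genes, and each was lower in both organoids. Of 24 blood transcription factors 9 were lower, among them GATA1, the erythroid and megakaryocyte regulator, at 9.90 and 26.7 CPM against 67.9 and 97.1 CPM, and ERG was higher. ITGA2B, the platelet integrin CD41, was at 12.999 and 45.0 CPM against 196 and 282 CPM. SPI1, IKZF1, MYB and TYROBP fell by 2.02, 2.17, 1.84 and 2.50 on the log2 scale.

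The number of genes called in this comparison rose to 3689 with the organoid as a block and to 3501 with only cells of exactly 1 RUNX1 UMI. It was 148 (14 higher, 134 lower) when both classes needed at least 2 RUNX1 UMIs, 582 without organoid 32.7 of RUNX1+ endothelium, and 1493 without its organoid 33.10. Leaving out organoid 32.7 or 33.10 of the other class gave 1172 and 1499.

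Against the 1001 RUNX1+ PTPRC+ blood cells (668 and 333), which had no CDH5 UMI, endothelial genes were higher and myeloid genes lower, as the rule that divides the classes fixes. Of 20181 genes 9261 were called (45.9%), 4590 higher (22.7%) and 4671 lower (23.1%). CDH5 and PTPRC divide the classes, so that the endothelial and myeloid lists are given as a description. Pan-endothelial genes were higher in 21 of 22 cases (median log2 fold change 4.67), arterial in 16 of 18 and venous in 9 of 11, whereas 19 of 20 myeloid genes were lower (median -4.78). All 18 S phase and all 19 G2 and M phase genes were lower, with medians of -1.66 and -2.81. TOP2A was at 13.3 and 56.0 CPM against 237 and 266 CPM (edgeR adjusted p = 2.98e-05).

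KDR was at 893 and 860 CPM against 14.3 and 10.9 CPM, and ESM1 at 1759 and 1581 CPM against 12.0 and 10.2 CPM. SOX17, a regulator of arterial and haemogenic endothelium, was at 153 and 125 CPM against 2.88 and 0.282 CPM. The 10 genes that the naming rule gave as higher in RUNX1+ endothelium were NOX4, ADGRF5, ADAMTS5, ESM1, PCDH1, ADGRL4, CLEC14A, PTCHD1-AS, ROBO4 and PRND. NOX4, an NADPH oxidase of vessel walls, led them at 235 and 199 CPM against 0.961 and 0.565 CPM (log2 fold change 7.74, SE 0.38). CLEC14A and ROBO4, endothelial surface receptors, were at 132 and 112 CPM against 1.24 and 0.424 CPM and at 92.9 and 64.4 CPM against 0.618 and 0.706 CPM.

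Of 24 haemogenic and blood transcription factors, 4 were higher in RUNX1+ endothelium (FLI1, ERG, MEIS1 and RUNX1T1) and 10 were lower. Over all genes tested, 22.7% were higher and 23.1% lower. ERG was at 162 and 161 CPM against 12.97 and 14.7 CPM, and FLI1, another ETS factor of endothelium and platelets, at 366 and 429 CPM against 152 and 192 CPM. MEIS1, a homeobox factor of progenitors, was at 154 and 220 CPM against 74.9 and 114 CPM and kept its call in 9 of 15 alternatives. SPI1 was at 17.3 and 13.6 CPM against 306 and 274 CPM, MYB at 4.64 and 8.41 CPM against 85.2 and 82.4 CPM, and IKZF1 at 10.8 and 14.5 CPM against 187 and 196 CPM. RUNX3, a relative of RUNX1 used by lymphocytes, was at 2.48 and 0.290 CPM against 39.1 and 32.9 CPM. GFI1 was lower too, with 0 and 0.870 CPM against 10.37 and 2.12 CPM (edgeR adjusted p = 0.00500). GATA2 was not called, at 30.02 and 31.3 CPM against 16.6 and 21.2 CPM (edgeR adjusted p = 0.0659).

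The 10 named genes that were lower in RUNX1+ endothelium were DEFA3, PGA5, OLFML2B, CD163, PLA2G7, S100A12, IRF8, MS4A7, RNASE3 and LILRB2. DEFA3, a neutrophil defensin whose reads cannot be told from near-identical copies, PGA5 and OLFML2B had 0 UMIs in RUNX1+ endothelium of both organoids, against 60.1 and 49.4, 27.7 and 24.6, and 27.4 and 21.7 CPM. CD163, the haemoglobin scavenger receptor of macrophages, was at 0.310 and 0 CPM against 104 and 121 CPM. IRF8, a factor of monocytes and dendritic cells, was at 0 and 0.290 CPM against 38.6 and 32.6 CPM. With so few UMIs no fold change is given for these genes. LYZ (lysozyme) was at 99.7 and 30.2 CPM against 2634 and 1195 CPM. The number of genes called in this comparison ranged from 7001 to 10182 over its alternatives.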

How the data were processed

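The authors deposited raw UMI counts for each gene in each barcode, made with Cell Ranger 7.0.0 on GRCh38 with intronic reads included, without normalization and before the study's removal of free RNA. Cells, lists and rules were chosen with earlier results of these data known. Levels are CPM, the UMIs of a class summed per organoid over all its UMIs. Sums of 8 classes in 2 organoids entered 1 fit with edgeR 4.0.16 in R 4.3.3 (TMM, low-count filter, quasi-likelihood test, Benjamini-Hochberg adjustment, no p for the 8 rule genes), which pools the spread. The standard error is the log2 fold change divided by the square root of F. Named genes were the rule genes, the markers, list genes and, per comparison and direction, the 10 largest changes with adjusted p under 0.05 and at least 20 CPM in both organoids of the higher class, without genes named only by a clone. Genes on the same strand that overlap or share near-identical copies are uncertain. Doublets were kept. Scrublet (scanpy 1.11.5) marked 0% of barcodes in organoid 32.7 by its own threshold, so the alternative removed the top 2276 and 3183 scores (an expected 0.8% per 1000 barcodes). Same-organoid classes deviated together (correlations with RUNX1+ endothelium of 0.353, 0.275 and 0.260 over 20189 genes for the 3 classes compared). Each organoid gave 1 library, so organoid and library cannot be told apart. Counts of 20189 genes were simulated, drawn independently for each class and organoid. Only genes with at least 20 CPM in the other class were changed, so recovery at lower levels was not measured. The test called 81, 79 and 86 of 100 genes set to a log2 change of 1 in the 3 comparisons, in the order given. It called 99, 97 and 98 of 100 set to 2, while unchanged genes made up 6.25%, 3.30% and 9.80% of calls. Alternatives covered the block, DESeq2 1.42.0, filters, doublets, cell cycle, depth, rule limits and left-out organoids. Sequences are from RefSeq and gene positions from a GENCODE annotation matched by identifier.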

Additional observations from a re-analysis of the deposited data

How the results depend on the processing

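With the organoid as a replicate block, which pairs the classes of 1 library, 256 genes were called against RUNX1-0 endothelium, 3689 against RUNX1+ endothelium with blood transcripts and 10182 against RUNX1+ PTPRC+ blood cells. Against RUNX1-0 endothelium, where 112 were reported, 363 were called with DESeq2, 593 without a filter on low counts (528 higher, 65 lower), 7 without top Scrublet scores, 28 without cells holding TOP2A or MKI67, 20 under stricter limits on blood transcripts, 1570 with at least 2 RUNX1 UMIs, 40 with at least 4 CDH5 UMIs, 57 without cells holding NR2F2, and 21 to 149 with 1 organoid left out of a class. With only RUNX1+ and RUNX1-0 endothelium in the fit, 84 genes were called, 56 of them among the 112 reported. Alternatives chosen after seeing the data gave 0 genes for exactly 1 RUNX1 UMI, 2 for 1 to 4 UMIs and 0 below the lineage limits. Against RUNX1+ endothelium with blood transcripts, where 2286 were reported, 830 were called with only the 2 classes in the fit, 1201 without cycling cells, 148 with at least 2 RUNX1 UMIs, 3501 with exactly 1 and 582 to 1499 with 1 organoid left out. A class left with 1 organoid was assumed to vary like the others. RUNX1+ cells numbered 91 with at least 2 RUNX1 UMIs and 219 with at least 4 CDH5 UMIs, and the share of endothelium with RUNX1 was 2.14% and 2.97% after thinning.

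The sign of the fitted log2 fold change turned as follows. Against RUNX1-0 endothelium, the log2 fold change of GFI1, which rests on 0 and 3 UMIs, ran from -4.00 to 2.32 with 1 organoid left out of a class (-4.00 without organoid 33.10 of RUNX1+ endothelium) and was -3.78 under stricter blood limits, -3.93 with exactly 1 RUNX1 UMI, -3.90 without NR2F2 and -3.98 below the lineage limits. With exactly 1 RUNX1 UMI, ANGPT1 was at -0.21, CKB at -0.029, PIM1 at -0.019 and HDC at -3.95. The negative values of GFI1 and that of HDC come from 0 UMIs in RUNX1+ endothelium, so that the fit sets their size and they show no change of direction. Below the lineage limits, AIF1 was at -0.010, SRGN at -0.25, CKB at -0.16 and PIM1 at -0.42. Against RUNX1+ endothelium with blood transcripts, GATA2 was at -0.29 without top Scrublet scores and -0.14 with exactly 1 RUNX1 UMI. Over the alternatives, the 26 genes named against RUNX1-0 endothelium kept direction and side of the threshold in 309 cases, lost the call in 165, gained it in 4 and turned in sign in 13, of which 6 are these of GFI1 and HDC. The 44 genes of the second comparison kept both in 559 cases, lost the call in 94 and turned in sign in 2, and the 40 genes of the third kept both in 587, lost the call in 8 and gained it in 1. The GFI1 split and its alternatives could not be fitted. Beyond the construction of each alternative, the cause was not tested. Depth limits GFI1 and the other genes at 0 to 3 UMIs, and 2 organoids of 1 cell line limit every test.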

Other observations

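The summed level of 16 interferon and inflammatory genes was higher in organoid 33.10 in each of the 8 classes compared, though only 8 (RUNX1-0 endothelium) to 12 (RUNX1+ endothelium) of the 16 were higher there in a class. In sum, the level was 3337 CPM in organoid 32.7 and 6177 CPM in organoid 33.10 in RUNX1+ endothelium, 3360 and 6815 CPM in RUNX1-0 endothelium, 995 and 2225 CPM in erythroid cells, 2105 and 3827 CPM in cardiomyocytes and 6432 and 11675 CPM in mesenchyme. ISG15, a ubiquitin-like interferon response protein, was at 333 CPM in organoid 32.7 and 1433 CPM in organoid 33.10 in RUNX1+ endothelium, and at 343 and 1491 CPM in RUNX1-0 endothelium. IFI27, another interferon-induced gene, was at 27.2 and 282 CPM in RUNX1+ and 32.4 and 319 CPM in RUNX1-0 endothelium. With 1 condition and 2 organoids, this difference was not tested.

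Among the 53 cells with 3 or more RUNX1 UMIs, single cells carried large amounts of transcripts from other lineages. A cell of organoid 32.7 with 29 RUNX1 UMIs held 763 UMIs of PRG2 and 718 of CLC, both eosinophil granule genes, beside 13 of KDR, and a cell of organoid 33.10 with 17 RUNX1 UMIs held 505 and 556, beside 26 of KDR. Neither was among the top Scrublet scores. PRG2 was found in 16 of the 53 cells and CLC in 3. Cells with 11, 10 and 3 RUNX1 UMIs held 280, 254 and 199 UMIs of AFP, the fetal plasma protein of liver and yolk sac endoderm, and none of these 3 was among the top Scrublet scores. Of the 53 cells, 16 were past none of the 6 lineage limits, and 28 had 20 or more UMIs of HBE1 or HBG2. These cells were chosen after their values were seen.

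AP000331.1, a long non-coding RNA within the span of RUNX1 on the opposite strand (chr21:34836286-34884882, plus strand), was at 7.12 and 11.02 CPM in RUNX1+ endothelium against 0.366 and 0.474 CPM in RUNX1-0 endothelium (log2 fold change 4.33). It was also chosen after its values were seen, and since it lies within RUNX1, which the rule used, it is a description.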
